A study of Drosophila melanogaster with 837 samples.

Results

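The Dpr, DIP, Beat and Side genes encode cell surface proteins of the immunoglobulin superfamily, and 36 of them were followed here through single cells sorted from late Drosophila melanogaster embryos. The members were the genes named dpr with a number, DIP-, beat- or side, including side genes listed under an older CG symbol, that had 10 or more reads in at least 5 cells. Of 54 annotated family genes, 15 of 21 Dpr genes and 5 of 11 DIP genes met this rule. So did 8 of 14 Beat genes and 8 of 8 Side genes. Over the deposited gene counts and these families together, 8838 genes met it. Genes outside the families that the deposited counts lack were not examined, and each share of all genes below leaves them out. The choice used the symbol and the number of cells with reads, and did not use the class of a cell.

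The cells came from embryos 19 to 20 h old that carried a GFP reporter driven by the Myosin heavy chain (Mhc) promoter, and GFP-positive, DAPI-negative, DRAQ5-positive cells were sorted singly into 96-well plates and sequenced as full-length Smart-seq2 cDNA, a protocol in which extra primers enriched Hox transcripts while cDNA was made and amplified. All cells formed 1 group on 15 plates, each cell its own library, with no second genotype, age or treatment. The labels name no embryo or culture for a cell, so all cells were handled as 1 sample, and no p-value could be given. Shares of cells below carry exact Clopper-Pearson 95% intervals, which cover counting error only and do not treat polymerase chain reaction reads as separate molecules.

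In flies, Dpr proteins bind DIP proteins and Beat proteins bind Side proteins, each across the space between neighbouring cells. Side was first described on muscles and other substrates of motor axons, with Beat-Ia as its receptor on the axon, and Dpr10 on muscle with DIP-alpha on the motor axon is another pair used at the larval neuromuscular junction. Many members are best known from neurons.

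About 810 cells had at least 500 genes at 10 reads and were used, 28 did not, and depth ran from 98988 to 6870936 reads per cell with a median of 772246. Mhc, the gene behind the reporter, had 10 or more reads in about 110 cells (13.5%). Ppn, a matrix protein gene of hemocytes, had them in about 230 cells, apolpp, the lipoprotein gene of the fat body, in about 340, esg, a Snail-type factor of progenitors, in 94, and about 120 cells had none of the 4. The labels call the source somatic muscle, and most cells lacked Mhc at this limit. In their markers, Pxn was found in 88.6% of Ppn-positive, Adh in 96.7% of apolpp-positive and sna in 75.5% of esg-positive cells. Other listed genes were less specific. Of the hemocyte list, Hml and crq were found in 19.7% and 21.1% of Ppn-positive cells. In apolpp-positive cells, vkg and Col4a1 of that list reached 96.7% and 97.3%. Only 3 of 7 fat body genes were measured, and Adh was in 34.2% of contractile cells. In esg-positive cells exex was found in 46.8% and the midgut gene GATAe in 50%. A narrower set of 79 cells, called contractile here, had Mhc and at least 10 of 20 contractile genes, with a median of 18. Of these, 23 lay on plate 17. Doublets were not removed, and 73 cells had more than 1 of the 4 markers. Cells with 2 or more of 13 neuron-list genes numbered about 440, where Syt1, cpx and elav were found in 81.7%, 37.9% and 35.2% of all cells. A stricter set of 5 or more such genes, added after the data were seen, held 15 cells on 9 plates.

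Recognition genes were rare in single cells and were spread over all classes. At least 1 member was found in 41.3% of cells (interval 37.9% to 44.8%), and the share over plates was 40.8% ± 9.19 (SD, n = 15 plates, technical spread). More than 1 was found in 14.8% (12.5% to 17.5%), and 5 or more in 11 cells. The single most widespread gene, beat-IIIc, reached 6.92% of cells. The median over the 36 members was 1.24% of cells, against 12.6% over all 8838 genes.

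Contractile cells held members most often of the 5 classes by marker. At least 1 member was present in 58 of 79 contractile cells (73.4%, 62.3% to 82.7%) and in 37.8% (34.3% to 41.4%) of the other cells. For all Mhc-positive cells the share was 67% (57.3% to 75.7%), against 37.3% of Mhc-negative cells. The other classes lay lower, at 48.7% of cells without the 4 markers, 43.4% of Ppn-positive, 36.2% of esg-positive and 34% of apolpp-positive cells. Depth differed between the classes, with a median of 501722 reads in contractile and 928062 in apolpp-positive cells. With each cell thinned to 256773 reads, which left out 81 shallower cells, the shares became 71.6% of 67 contractile cells, 39.4% of cells without the 4 markers, 37.7% of esg-positive, 32.4% of Ppn-positive and 18.1% of apolpp-positive cells.

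**Figure D1:**
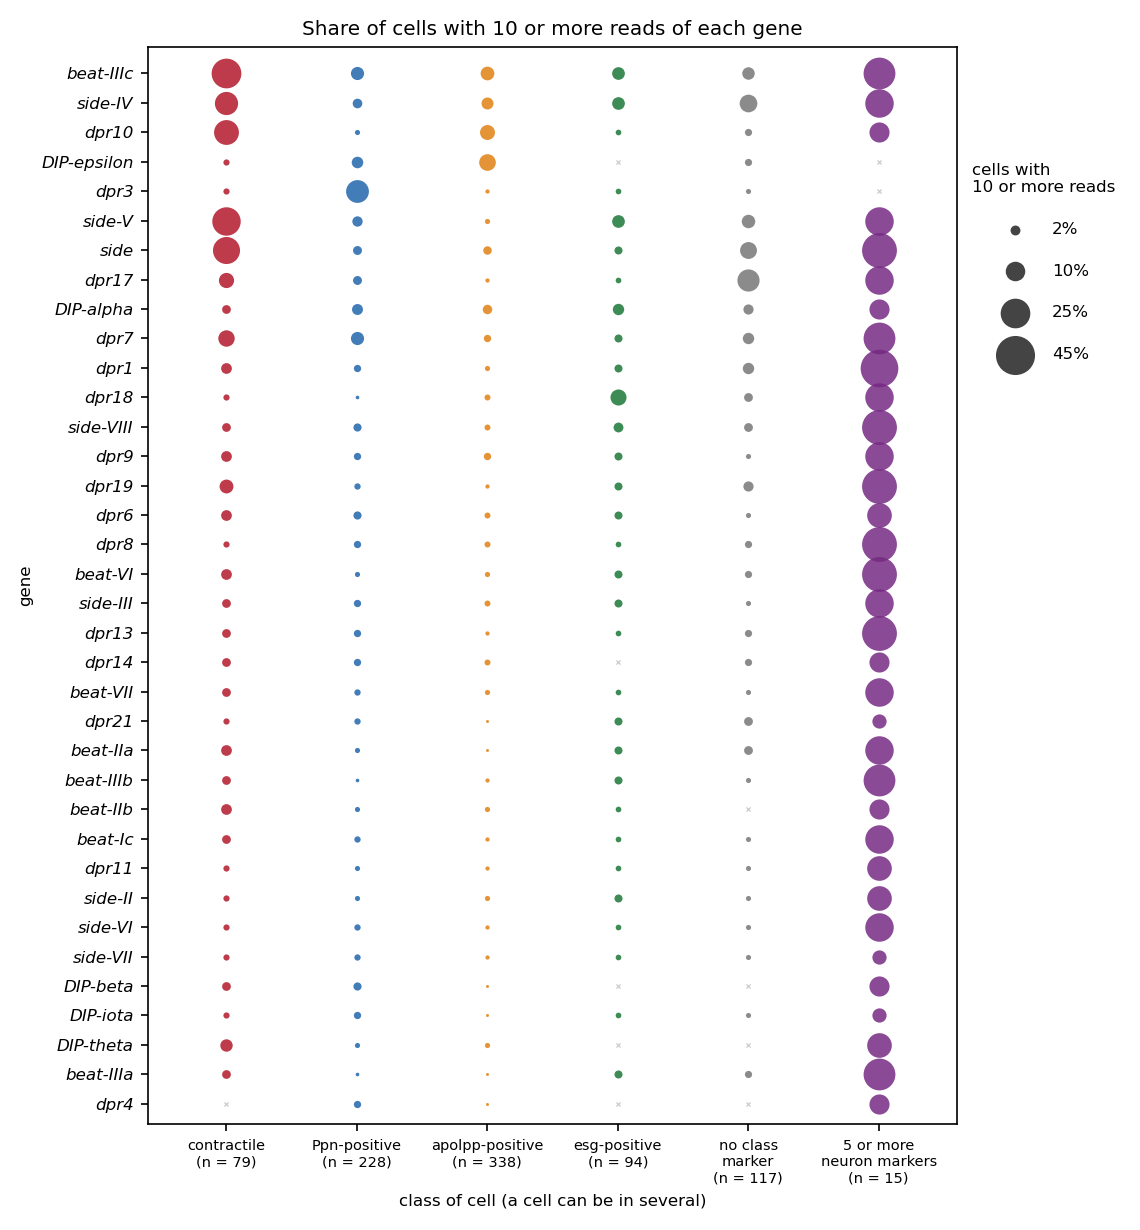
Share of cells with 10 or more reads of each of the 36 genes (rows) in 6 classes of cell (columns), with dot area proportional to the percentage and a cross where no cell held the gene. The left column carries its largest dots for beat-IIIc, side-V, side, dpr10 and side-IV, and dpr3, DIP-epsilon, dpr18 and dpr17 stand out in 1 other column each, while the right column, 15 cells with 5 or more neuron-list genes, has dots for 34 of 36 genes.

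A member was called higher in a class where its share was at least 2 times that of all other cells and the intervals did not overlap. By this rule 8 of 36 members (beat-IIIc, side-IV, dpr10, side-V, side, dpr9, dpr19 and DIP-theta) were higher in Mhc-positive cells, beside 6.80% of all genes, and none was lower. For contractile cells the count was 7 of 36, the same genes without dpr9, beside 7.46% of all genes. In Ppn-positive cells 2 members were higher (dpr3 and DIP-beta) beside 5.99% of all genes. In apolpp-positive cells 1 was higher (DIP-epsilon) beside 13.1%, in esg-positive cells 1 (dpr18) beside 4.24%, and in cells without the 4 markers 1 (dpr17) beside 10.3%. The member counts in these 4 classes were at or below the share of all genes, so the classes other than muscle are described through single members. Outside the class where they were called, DIP-theta, DIP-beta and dpr3 had fewer than 5 cells. They met the rule on 5 cells only through that class, which favoured their calls. The shares of all genes rest on the same rule.

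Of the 4 families, Side had the highest share in contractile cells, though its interval overlaps those of the Dpr and Beat genes. At least 1 of its 8 members was present in 41 of 79 contractile cells (51.9%, 40.4% to 63.3%), against 23.1% (15.8% to 31.8%) of cells without the 4 markers, 14.9% of esg-positive, 11.4% of Ppn-positive and 8.88% of apolpp-positive cells. Thinned to 1 depth, these shares were 47.8%, 18.2%, 13%, 8.10% and 4.13%.

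The founding member side (chromosome arm 3R, 27375088 to 27437482, minus strand, BDGP6.54) encodes the ligand that draws motor axons to muscle. Of the 36 cells that held it 19 were contractile, and in these its level was 15.3 to 528.1 CPM (counts scaled to 1e+06 per cell) with a median of 149.2. Its share was 24.1% (15.1% to 35%) of contractile and 2.33% of other cells, 10.3 times as high. Members of the contractile apparatus were the genes most like it over all cells, with a Pearson r of log2(CPM + 1) equal to 0.39 for wupA (troponin I), 0.39 for up (troponin T) and 0.38 for TpnC73F (troponin C). These correlations are descriptions over cells that share plates and differ in depth.

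The related gene side-V (chromosome arm 2R, listed as CG34371) was found in 39 cells, 21 of them contractile, with a lowest level of 15.3 CPM and a median of 112.1 in those, and a highest log2(CPM + 1) of 9.67. The share was 26.6% (17.3% to 37.7%) of contractile cells and 2.47% of other cells, 10.8 times as high. Only 3 apolpp-positive cells held it (0.888%), and it was lower there by the same rule. The genes most like it were CG42492 (r = 0.51), wg, which encodes a Wnt ligand (0.51), and mid (0.50). The T-box gene mid is known from heart precursors, and the authors tentatively used it, with Poxm, to name ventral and lateral somatic muscle.

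Least restricted of these Side genes was side-IV (chromosome arm 3R, 13450590 to 13464184, plus strand, listed as CG14372). With 50 cells it came second of all members, and only 14 of those were contractile, at 25.2 to 1101.7 CPM with a median of 163.2. Its share was 17.7% (10% to 27.9%) of contractile cells, 10.3% of cells without the 4 markers, 5.32% of esg-positive, 4.73% of apolpp-positive and 3.07% of Ppn-positive cells. The genes most like it were CG45263 (r = 0.41), qua (0.37), Hand, a factor of the heart and blood-forming organ (0.37), CG42492 (0.35) and stai (0.35). Other Side genes were sparse, with side-VIII in 14 cells, side-III in 10, and side-II, side-VI and side-VII in 6 each.

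Among the Beat genes, counterparts of the Side family, only beat-IIIc was common (chromosome arm 2L, 17187637 to 17260734, minus strand). Its 56 cells had 9.7 to 1623.5 CPM with a median of 117.6. The 23 contractile cells among them had 20.4 to 1623.5 CPM with a median of 259.8, and they made up 29.1% (19.4% to 40.4%) of the class against 4.52% of other cells, 6.44 times as high. They were spread over 13 of 15 plates. Another 21 cells that held it were apolpp-positive (6.21%, median 67.1 CPM) and 13 were Ppn-positive (5.70%, median 292.1 CPM), and these sets overlap with the contractile cells.

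The genes most like beat-IIIc were Nrt (r = 0.45), which encodes the adhesion protein Neurotactin, CG42673 (0.40), kon (0.39), needed for muscles to reach their attachment sites, CG45076 (0.39) and CG42450 (0.38). Of its neighbours, beat-IIIa lies 14518 bases away on the same arm and was found in 5 cells, all within the 15 cells with 5 or more neuron-list genes. The gene beat-IIIb was found in 6 cells, 5 of them in that set. The remaining Beat genes that met the rule were beat-VI in 10 cells, beat-VII in 8, beat-IIa in 7, and beat-IIb and beat-Ic in 6 each.

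The Dpr family was shared between muscle and other classes. At least 1 of its 15 members was found in 38% (27.3% to 49.6%) of contractile cells, 29.8% of Ppn-positive cells, 29.1% of cells without the 4 markers, 21.3% of esg-positive and 14.2% of apolpp-positive cells. In contractile and apolpp-positive cells dpr10 led, in Ppn-positive cells dpr3, in esg-positive cells dpr18 and in cells without the markers dpr17.

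The muscle ligand dpr10 (chromosome arm 3L, 10147454 to 10186108, minus strand) was found in 44 cells, 16 of them contractile and 25 apolpp-positive. Its level was 12.6 to 190.5 CPM with a median of 35.6 in contractile cells, and 2.8 to 297.6 CPM with a median of 36 in apolpp-positive cells. The shares were 20.3% (12% to 30.8%) and 7.40% (4.84% to 10.7%), against 0.877% of Ppn-positive cells, where it was called lower, and 1 of 94 esg-positive cells. Of the 5 leading members of contractile cells it changed most with thinning, to 10.4% of contractile and 1.66% of other cells, and both the call and its direction held. The genes most like it were CG16779 (r = 0.37), GluRIIC, an essential subunit of the muscle glutamate receptor (0.35), the innexin gene shakB (0.31), Slc45-1 (0.31) and H15, a T-box gene (0.31).

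Its relative dpr6 lies 8093 bases away on the same arm, and both bind DIP-alpha. Its reads were seen in 12 cells and together with dpr10 in 1 cell.

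Expression of dpr3 (chromosome arm 2L, 2058790 to 2109878, minus strand) followed Ppn. Of 42 cells that held it, 39 were Ppn-positive, on 14 of 15 plates, and there its level was 2.5 to 378.2 CPM with a median of 74.9. The share was 17.1% (12.5% to 22.6%) of Ppn-positive cells and 0.516% (0.107% to 1.5%) of other cells, of which 3 held it, and thinning left 11.4% against 0.193%. It was lower in apolpp-positive cells, where 2 cells held it.

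Genes most like dpr3 were CG4259 (r = 0.53), He, which encodes the hemocyte glycoprotein Hemese (0.45), CG33460 (0.45), Pxn, which encodes the matrix enzyme Peroxidasin made by hemocytes (0.42), and jtb (0.42). Within the Ppn-positive cells, dpr3 was found in 36 cells with CG4259 (29.3%, 21.4% to 38.1%) and in 3 without it (2.86%, 0.593% to 8.12%). For He the shares were 26.4% of cells with it and 6.5% of cells without, and none of 26 Ppn-positive cells without Pxn held dpr3, which allows a share of up to 11.5%. Cells with He were deeper than those without, at a median of 998728 and 660930 reads, and after thinning the He shares were 17.1% and 4.30%. CG4259, He and Pxn were taken from the genes most like dpr3 in the same data. The direction of these splits was thus favoured in advance, and they are descriptions only.

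The gene dpr17 (chromosome arm 3R, 12094876 to 12111420, plus strand) was mostly found in cells that none of the 4 markers describes. Of its 28 cells, 19 lacked all 4 markers, with 10.5 to 846.2 CPM and a median of 126.6. Its share was 16.2% (10.1% to 24.2%) of cells without the markers and 1.30% of other cells, 12.5 times as high, and 15.2% and 1.27% after thinning. Only 2 apolpp-positive cells held it, lower by the same rule.

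The genes most like dpr17 were mthl13 (r = 0.61), kn (0.48), a factor known from the signalling centre of the lymph gland, Cks30A (0.44), odd (0.43), a zinc finger factor of pericardial and lymph gland cells, and Pen (0.43). Within the cells without the 4 markers it was found in 15 of 24 with kn (62.5%, 40.6% to 81.2%) and in 4 of 93 without (4.30%, 1.18% to 10.6%). For Hand the shares were 65% (13 of 20) and 6.19% (6 of 97), and for zfh1, a factor of mesoderm and blood cells, 40.9% (18 of 44) and 1.37% (1 of 73). None of 15 such cells with svp held it, which allows a share of up to 20%. For Antp the shares were close, at 18.8% of such cells with it and 15.8% without. For Ptx1 they were 3.85% with it and 19.8% without, and the intervals overlap for both genes. These splits were chosen after the values were seen, and the marker lists name no class for these cells.

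Of cells that held dpr18, 14 in all, 8 were esg-positive, with 80.6 to 680.5 CPM and a median of 199.8. They made up 8.51% (3.75% to 16.1%) of esg-positive cells against 0.839% of other cells, 10.1 times as high, and 9.09% against 0.461% after thinning. They lay on 6 plates, and without plate 14, which moved it most, the share was 5.88%. Of the 14 cells, 4 had 5 or more neuron-list genes, and without such cells the shares were 7.61% and 0.427%.

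Further Dpr genes had few cells. The gene dpr7, on chromosome 4, was found in 27 cells, 13 of them Ppn-positive and 7 contractile, and passed the rule in no marker class. In Mhc-positive cells, dpr9 was found in 7 cells (6.42%, 2.62% to 12.8%) against 0.857% of other cells and dpr19 in 6 (5.50%, 2.05% to 11.6%) against 0.857%. Thinning ended the call of dpr9, at 3.23% and 0.157%, and dpr19 was not called without plate 17 or plate 14, nor without plate 6 or plate 11. The genes dpr1, dpr6, dpr8, dpr13, dpr14, dpr21, dpr11 and dpr4 were found in 14, 12, 11, 9, 9, 8, 6 and 5 cells.

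The DIP genes, whose products are best known as neuronal partners of Dpr proteins, were not higher in contractile cells as a family. At least 1 of 5 members was found in 6 of 79 contractile cells (7.59%, 2.84% to 15.8%), against 12.7% of apolpp-positive, 11% of Ppn-positive, 5.98% of cells without the 4 markers and 5.32% of esg-positive cells, and its interval overlaps each of the others. After thinning the shares were 5.97% of contractile, 6.03% of apolpp-positive, 4.76% of Ppn-positive, 5.05% of cells without the markers and 5.19% of esg-positive cells.

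DIP-epsilon (chromosome arm 2L, 6377771 to 6411326, minus strand) led this family with 43 cells, of which 31 were apolpp-positive. There its level was 6.9 to 562.1 CPM with a median of 38.4. Its share was 9.17% (6.32% to 12.8%) of apolpp-positive and 2.55% of other cells, 3.6 times as high, and no esg-positive cell of 94 held it, lower by the same rule, which allows a share of up to 3.19%. Cells that held it had a median of 1214186 reads against 756204 in the rest. Thinning gave 4.76% against 1.21%, and the call ended because the intervals then overlapped.

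Likeness of DIP-epsilon to other genes was weak, with alpha-Est7 at the top (r = 0.27). Within apolpp-positive cells it was found in 1 of 45 cells with the posterior Hox gene Abd-B, 1 of the genes with added primers, and in 30 without (10.2%), and the intervals overlap. In the same cells dpr10 was found in 8 of 45 with Abd-B (17.8%, 8% to 32.1%) and in 17 without (5.80%, 3.42% to 9.13%), which also overlap.

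DIP-alpha, the partner of dpr6 and dpr10, was found in 27 cells on 11 plates and passed the rule in no class, with 10 apolpp-positive, 9 Ppn-positive, 4 esg-positive and 2 contractile cells. One of its exons shares bases with CG2875 on the same strand, and CG2875 had 10 reads in 11 of the 27 cells, so reads of the pair may have been split by the counting. DIP-beta was found in 5 Ppn-positive cells (2.19%) and in none of the other cells, for which a count of 0 allows a share of up to 0.516%. DIP-theta was found in 4 Mhc-positive cells (3.67%, 1.01% to 9.13%) and 1 other. Both calls rest on a handful of cells and were lost after thinning and without the 15 cells with 5 or more neuron-list genes. DIP-iota was found in 5 cells.

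**Figure D2:**
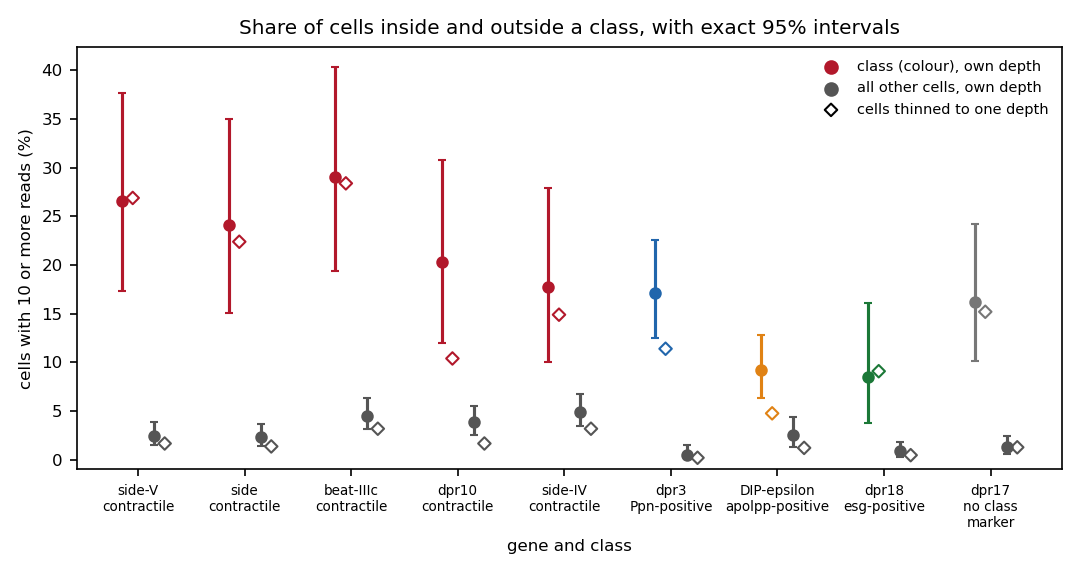
Share of cells with 10 or more reads inside a class (coloured circles) and in all other cells (dark circles) for 9 genes, with exact 95% intervals, and the shares after thinning to 256773 reads (diamonds, drawn without intervals). The 5 genes in contractile cells lie between 17.7% and 29.1% inside the class, and dpr10, dpr3 and DIP-epsilon show the widest gaps between circle and diamond.

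Within contractile cells, the 5 leading members were present in many combinations. None of dpr10, side, side-IV, side-V and beat-IIIc was found in 28 of 79 cells, 1 in 24 cells, 2 in 14 cells and 3 or more in 13 cells. There were 20 different combinations, the most frequent being side alone in 9 cells and beat-IIIc alone in 7, while 6 combinations were found in 1 cell each. With 1 library per cell, a gene that was missed cannot be told apart from a gene that was not expressed.

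Side genes differed between contractile cells with and without Hand. Of 38 Hand-positive contractile cells, 18 held side-V (47.4%, 31% to 64.2%), against 3 of 41 Hand-negative ones (7.32%, 1.54% to 19.9%). For side-IV the numbers were 12 of 38 (31.6%, 17.5% to 48.7%) and 2 of 41 (4.88%, 0.596% to 16.5%). These were the 2 members called higher of 8 tested in this comparison, beside 5.12% of all genes. By contrast, side was found in 18.4% of Hand-positive and 29.3% of Hand-negative cells, beat-IIIc in 42.1% and 17.1%, and dpr10 in 28.9% and 12.2%, and the intervals of each pair overlap.

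Median depth was close in the Hand groups, at 500729.5 and 510918 reads. Of the Hand-negative cells, 18 of 41 lay on plate 17, against 5 of 38 Hand-positive ones, and contractile cells of plate 17 had a median of 12 contractile genes against 19 elsewhere. Without plate 17, side-IV was found in 10 of 33 and 0 of 23 cells, and the intervals stayed apart. For side-V the shares were then 48.5% (30.8% to 66.5%) and 13% (2.78% to 33.6%), which overlap. Without cells that had 5 or more neuron-list genes, side-V kept its call at 45.9% and 5.26%, and side-IV lost it at 29.7% (15.9% to 47%) and 5.26% (0.644% to 17.7%). The split by Hand was 1 of several with a like pattern. Over all cells, Hand was among the genes most like side-IV, and mid among those most like side-V. Splits of these members by those genes were thus favoured to differ, and they are descriptions only. Contractile cells with the T-box gene mid held side-V in 18 of 35 and those without in 3 of 44, and for H15 the numbers were 17 of 32 and 4 of 47. For tup, a LIM-homeodomain factor, they were 15 of 29 and 6 of 50, and for svp, a nuclear receptor, 14 of 29 and 7 of 50. The same 4 splits gave 11 of 35 and 3 of 44, 11 of 32 and 3 of 47, 9 of 29 and 5 of 50, and 11 of 29 and 3 of 50 for side-IV. Intervals were apart for side-V in all 4 and for side-IV with H15 and svp. Depth differed in the svp split, with a median of 695570 reads with svp and 470961 without. After thinning its shares were 42.9% and 15.4% for side-V, and 28.6% and 5.13% for side-IV. Of the heart list, tin was not in the series table and Him was found in 8 cells. The listed gene prc was not specific to contractile cells, found in 64.6% of them and in 94.7% of apolpp-positive cells.

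**Figure D3:**
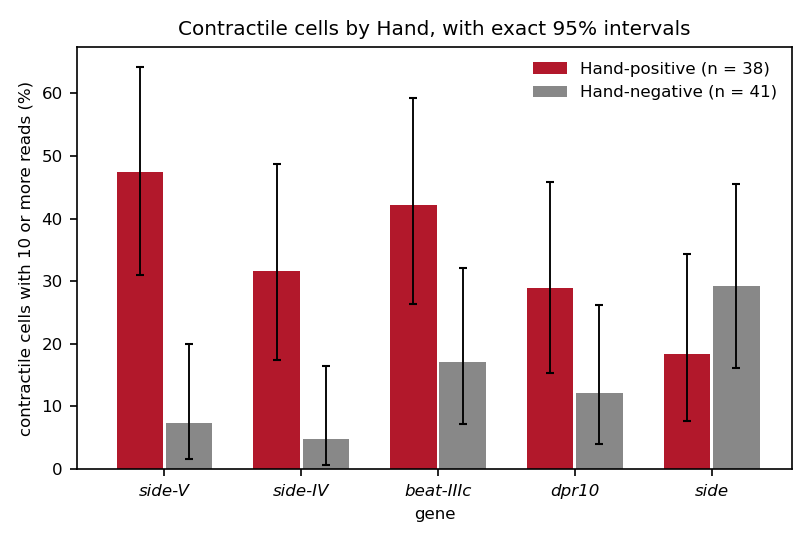
Share of contractile cells with 10 or more reads of 5 genes, split by 10 reads of Hand, with exact 95% intervals. Bars for side-V (47.4% against 7.32%) and side-IV (31.6% against 4.88%) are apart, those for beat-IIIc, dpr10 and side overlap, and side is the one gene with the higher bar in Hand-negative cells.

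Plate 17 held the most contractile cells, and the shares of members there were set against the other plates. Any member was found in 12 of its 23 contractile cells (52.2%, 30.6% to 73.2%) and in 46 of 56 on other plates (82.1%, 69.6% to 91.1%). The gene dpr10 was found in 1 of 23 and 15 of 56, and side-V in 2 of 23 and 19 of 56. The intervals overlap in all 3 comparisons. Without plate 17 the shares in contractile cells were 33.9% for beat-IIIc, 33.9% for side-V, 26.8% for side, 26.8% for dpr10 and 17.9% for side-IV. Its part in these differences was not tested.

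A few cells carried most of the rare members. Of 11 cells with 5 or more members, 8 had 5 or more neuron-list genes. The 15 cells with that many neuron-list genes had 0 to 29 members with a median of 9, and the other cells had 0 to 7 with a median of 0. They made up 1.85% of cells and held 21.3% of all detections of a member. By the same rule, 28 of 36 members were higher in these 15 cells, beside 10.2% of all genes. A member that met the rule on 5 cells only through these cells was favoured to be higher there. With members required to have 5 cells elsewhere the count was 14 of 21, beside 9.25% of genes.

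The genes concerned came from all 4 families. At least 50% of the cells that held them were in this set for 14 members, among them beat-IIIa (5 of 5 cells), beat-IIIb (5 of 6), dpr13 (6 of 9), beat-VI (6 of 10), dpr8 (6 of 11) and dpr1 (7 of 14). In contrast, dpr3 and DIP-epsilon were found in none of the 15 cells. Of the 5 leading members of contractile cells, 2 to 6 cells lay in this set, and all 5 calls in Mhc-positive cells held without it.

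The cell with the most members, on plate 17, had 29 of 36 together with 12 of 13 measured neuron-list genes and 19 of 20 contractile genes. It had 10 reads of Mhc, Ppn and apolpp and 4247 genes at 10 reads, the second most of all cells. Among the next cells, 2 had 15 members and 1 had 13, with 10 or 11 neuron-list genes and at most 2 contractile genes. Over the 15 cells, 1 to 19 contractile genes were found with a median of 5, and whether any well received more than 1 cell was not tested.

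**Figure D4:**
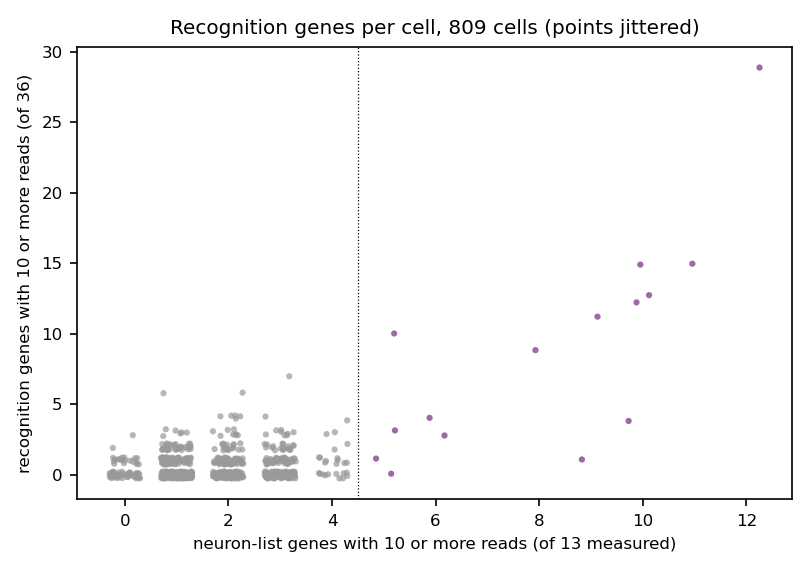
Number of the 36 recognition genes at 10 or more reads in each cell against the number of 13 neuron-list genes at 10 or more reads, with points jittered and the 15 cells at 5 or more neuron-list genes in purple. The single cell at the upper right has 29 members and 12 neuron-list genes, and no cell left of the dotted line has more than 7 members.

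Known partner genes were seldom found in 1 cell. DIP-alpha and dpr10 were both present in 4 cells, where the product of their shares within plates gives 1.35, and 3 of the 4 lay outside the neuron-rich set. DIP-alpha and dpr6 were present together in 0 cells (product 0.399). The pairs DIP-delta with dpr12, side-VI with beat-Va, side-VI with beat-Vb, DIP-gamma with dpr11, side with beat-Ia and side-IV with beat-IIa were found together in 1 or 2 cells, all of them within the neuron-rich set, and side-IV with beat-IIb in none. The products describe shares over plates and are not a test.

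Among the 8 most widespread members, pairs of the contractile group were met most often. Over all classes, beat-IIIc was present with side-V in 13 cells (product 3.14), with side-IV in 11 (3.58), with dpr10 in 10 (3.59) and with side in 9 (2.44). Within contractile cells the same pairs gave 9 (7.85), 9 (5.83), 6 (5.64) and 5 (4.93), closer to the products. The pair side-IV and side-V was found in 8 contractile cells with a product of 3.90. Pairs of members that led in different classes lay on both sides of their products. Together, dpr3 and beat-IIIc were found in 0 cells (product 2.96), DIP-epsilon and beat-IIIc in 0 (2.83), and dpr3 and DIP-epsilon in 2 (2.44). With dpr17, side was found in 6 cells (1.53), side-IV in 4 (1.62) and beat-IIIc in 3 (2.07). Without the neuron-rich cells these 3 pairs with dpr17 gave 3 (1.04), 3 (1.26) and 1 (1.62), the last below its product.

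Levels were compared between genes only per length, as TPM (transcripts per 1e+06 transcripts) averaged over all cells. Here beat-IIIc was highest at 11.9 TPM, followed by dpr7 at 8.98, beat-VI at 5.17, dpr1 at 4.02 and DIP-iota at 3.78, and 21 of 36 members averaged at least 1 TPM. Some means rest on 1 cell, and without its own highest cell the mean of DIP-iota was 0.223 TPM, of beat-VI 2.77 and of dpr1 1.46, against 10 for beat-IIIc and 7.27 for dpr7, and 13 members reached 1 TPM. Without the 15 neuron-rich cells beat-VI fell to 0.681 TPM and dpr1 to 0.312, whereas beat-IIIc was at 11.8. In contractile cells the mean was 70.3 TPM for beat-IIIc, 11.8 for side-V, 11.6 for side-IV, 9.57 for side and 4.98 for dpr10. The value for side-III is too low, since the transcripts that the annotation gives it held fewer reads than the gene has in the series table. It was the one member with a difference over 1 read.

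**Figure D5:**
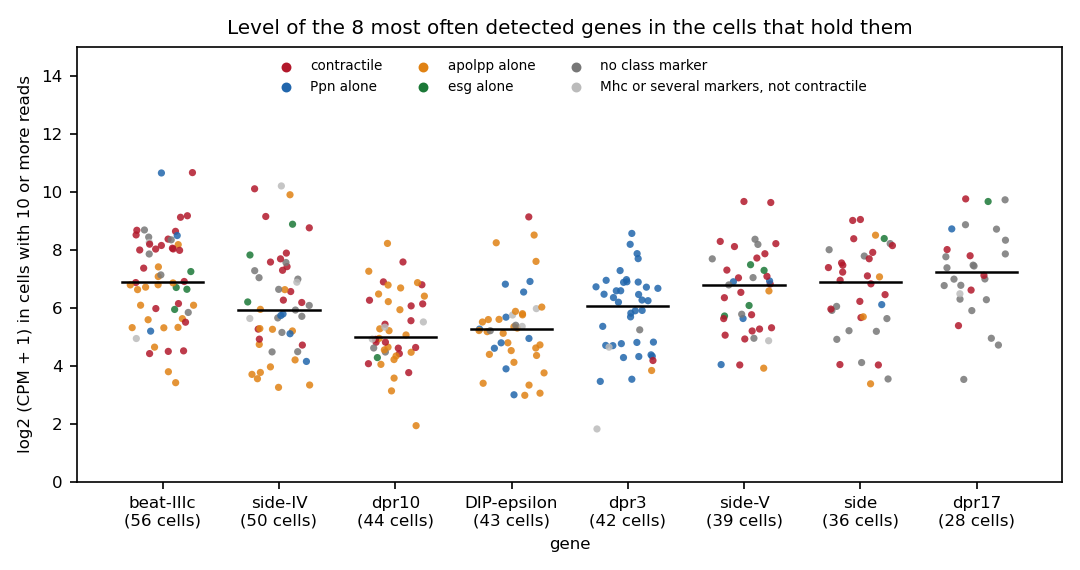
Level of the 8 most often detected genes as log2(CPM + 1) in each cell with 10 or more reads, with the median as a black line and colours for the class of the cell. Cells in red for side and side-V, blue for dpr3, orange for DIP-epsilon and grey for dpr17 make up the largest part of each column, and the spread within a gene is wide.

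Reads of a member were usually divided among transcripts. Of the members, 8 have 1 transcript in the files, and of the 28 others 4 had at least 90% of their estimated reads on 1. For beat-IIIc, beat-IIIc-RA took 67.7% and beat-IIIc-RB 32.3%. The side-IV reads were divided between side-IV-RC with 76.8% and side-IV-RD with 23.2%, and 58.8% of dpr3 reads fell on dpr3-RD. For side-V both transcripts were given 50%, and both have the same length.

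Other wiring genes gave a background for these families. Of a list of 62 genes for axon guidance, adhesion and synapse formation, 59 were measured, and 20 were higher in Mhc-positive cells, 5 in Ppn-positive, 2 in apolpp-positive and 8 in esg-positive cells. Over all genes 6.80%, 5.99%, 13.1% and 4.24% were called in these classes. The median share of cells was 8.03% for the list, 1.24% for the members and 12.6% for all genes. In Mhc-positive cells the genes called included caps (46.8% of cells), Dscam1 (44%), Ten-a (42.2%), Fas3 (40.4%), sli (40.4%), 18w (37.6%), unc-5 (33.9%), mspo (31.2%), Nrt (29.4%), Fas1 (22.9%), trn (21.1%), CadN (18.3%), NetA (15.6%), sns (15.6%), Con (13.8%), Nrx-1 (13.8%), dlp (11.9%) and rst (10.1%). With 22.9% of Mhc-positive cells, beat-IIIc lay beside Fas1 in this order, and side-V, side, dpr10 and side-IV lay between 20.2% and 14.7%.

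The 18 family genes left out were beat-IV, beat-Ia, beat-Ib, beat-Va, beat-Vb, DIP-delta, DIP-eta, DIP-gamma, DIP-kappa, DIP-lambda, DIP-zeta, dpr2, dpr5, dpr12, dpr15, dpr16 and dpr20, found in 0 to 4 cells, and beat-Vc, which was not analysed here. DIP-zeta had 10 reads in no cell, which allows a share of up to 0.371%.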

How the data were processed

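Single cells were sorted by GFP and prepared with Smart-seq2, without molecular identifiers, and the library kit does not mark strand. Per the labels, the authors used kallisto 0.43.0 and R 3.5.1 with build BDGP6, and the Ensembl release is not given in the sources used here. The authors deposited whole estimated counts for 8862 genes in 837 cells, and for each cell a file of estimated counts and TPM over 30651 transcripts. Of these, 30280 were assigned to genes with Ensembl release 115 (BDGP6.54), and sums lay within 0.51 reads of the table for 99.95% of values. The table gave 26 members and the cell files the other 10, rounded to whole reads.

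A gene was detected at 10 reads in cells with at least 500 genes at 10 reads. Of 809 such cells, 109 had Mhc, 228 Ppn, 338 apolpp, 94 esg and 117 none of the 4 class markers, which were rounded to 10 in the results, and 334 had a member. CPM and log2(CPM + 1) were computed from the deposited counts, and TPM is the deposited value summed per gene. Exact intervals were computed with scipy 1.17.1 at the 95% level, and the limit for a count of 0 is 3 cells of the total. Thinning drew 256773 reads per cell, the 10th percentile of depth, without replacement. Calls were tested on simulated data. Plates were the only technical unit, with 40 to 66 cells each and median depths from 348433 to 1654806 reads. Values with SD over plates describe technical spread. No sample was unassigned, no doublet caller was run, and no count model or p-value was used because the cells are 1 sample.

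Members and gene lists were chosen with earlier results of these data known. All members at 10 reads in 5 cells were named, and of the wiring list the genes called in Mhc-positive cells with at least 10% of those cells. Likeness is given for the 3 members with most cells by rule and for the others by a later choice. The contractile set, the Hand split, the class without markers and the set with 5 or more neuron-list genes were added after the data were seen. Of the neuron list, Rbp9 was also found in 36 of 79 contractile cells. No genome sequence was used, and no sequences are printed.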

Additional observations from a re-analysis of the deposited data

Results flagged for a closer look

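Recognition genes were also present in cells that no comparison used. Of 28 cells with fewer than 500 genes at 10 reads, 9 had 10 or more reads of at least 1 member, and 11 of 36 members were seen there. Among them side was found in 2 cells.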

How the results depend on the processing

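At least 1 member was found in 41.3% of cells, in 60.3% at 1 read, 23.6% at 50 reads, 29.8% after thinning and 36.9% without cells of 2 or more neuron-list genes, and in 40.3% to 42.4% with 1 plate left out. In Mhc-positive cells 67% became 83.5% at 1 read, 52.3% at 50 reads and 48.3% without cells of 2 or more neuron-list genes, and 65% to 75.3% with 1 plate left out. That setting keeps 29 Mhc-positive cells. The 8 members higher in Mhc-positive cells became 5 at 50 reads, beside 7.36% of all genes, and 5 for cells with 1 marker alone, beside 9.08%. Without cells of 2 or more neuron-list genes they became 0, beside 2.98% of all genes against 6.80% before. With 1 plate left out they were 6 to 9, beside 6.36% to 7.26%. By mean CPM they became 22, beside 22.2% of all genes, and 21 with ribosomal RNA left out, beside 20.5%. For Ppn, 2 became 1 at 50 reads, after thinning, for 1 marker alone and without the cell with the most members. The count was also 1 without cells of 2 or more or of 5 or more neuron-list genes. In these settings 5.87% to 8.27% of all genes were called. By mean CPM the count became 6, beside 8.86% of all genes, and 8 with ribosomal RNA left out, beside 9.82%. With 1 plate left out it was 1 to 2 (1 without plate 10, 14, 16 or 17, dpr3 each time). For apolpp, 1 became 2 at 1 read, 0 at 50 reads, after thinning and without cells of 2 or more neuron-list genes, 5 by mean CPM and 4 with ribosomal RNA left out, and 1 with any plate left out. For esg, 1 became 0 without cells of 2 or more neuron-list genes, beside 3.85% of all genes, and stayed 1 with any plate left out. By mean CPM it became 11, beside 33.9% of all genes, and 10 with ribosomal RNA left out, beside 25.9%. The 21 members at 1 TPM became 8 and 11 without cells of 2 or more and of 5 or more neuron-list genes, and 13 without the highest cell of each member. Cells with 2 or more members, 14.8%, became 28.9% at 1 read, 11.3% without cells of 2 or more neuron-list genes and 7.55% after thinning. DIP-epsilon in apolpp-positive cells fell to 1.61% without cells of 2 or more neuron-list genes, below the 2.59% of other cells, and the cause was not tested. Of the values of named members in a class, 17 moved beyond the interval of the value reported, 1 reversed and the rest stayed within it, and none of 180 with 1 plate left out moved beyond it. The settings of 5 or more neuron-list genes, without the cell with the most members, without the highest cell of each member and of contractile cells were chosen after seeing the data. No paired analysis was possible because all cells share 1 group.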
